A study of Mus musculus with 2 samples.

Results

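The 1000 strongest CTCF peaks of mouse fetal liver are described here. They were chosen by the deposited signal value in the optimal peak list, the list of peaks that were reproducible between the replicates by the irreproducible discovery rate (IDR). After 19 repeated regions had been removed, that list held 50890 peaks, so the members are 1.97% of it. Chromatin was immunoprecipitated with an antibody against CTCF and sequenced (ChIP-seq) from whole livers of B6NCrl embryos at day 14.5. Male and female embryos were pooled, and the livers of several dissections were powdered together. There was 1 group with 2 replicates, no treatment and no second genotype. Both replicates carry the same biosample and donor label, so their spread may be technical and is not known to cover variation between animals. Such livers are mixtures of blood-forming cells and hepatocytes, and the peaks do not tell which cells were bound. The read depth is unknown. Intervals below (Wilson, 95%) treat peaks as independent and cover counting error only, not variation between libraries or animals.

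CTCF is a DNA-binding protein with an array of zinc fingers, which reads a long, asymmetric core motif. At many bound sites it halts the cohesin ring that extrudes chromatin loops, and loops are known to form mostly between sites whose motifs point towards each other. Binding can be blocked by methylation of CpG dinucleotides within the motif, and copies of the motif have been spread through the mouse genome by B2 repeats.

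The 10 strongest members each held 2 matches to the CTCF core motif within 50 bp of the summit, the point of highest signal in the peak. They are shown because this pair of motifs is what they have in common. Each is printed 5′ to 3′ on the plus strand of the GRCm38 (mm10) RefSeq genome, named by the nearest protein-coding gene, with 5 bases beyond the outer motifs. Capitals mark the 14 bases of each core motif, of which at most 2 differ from the consensus.
Rbm19, chr5:120102925-120102994: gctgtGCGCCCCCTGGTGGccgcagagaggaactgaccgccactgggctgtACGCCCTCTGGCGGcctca
Fam129b, chr2:32912591-32912649: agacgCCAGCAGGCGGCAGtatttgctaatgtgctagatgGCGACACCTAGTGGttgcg
Epm2aip1, chr9:111290012-111290087: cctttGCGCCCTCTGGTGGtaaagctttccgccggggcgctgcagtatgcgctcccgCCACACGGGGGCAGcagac
Comtd1, chr14:21848989-21849062: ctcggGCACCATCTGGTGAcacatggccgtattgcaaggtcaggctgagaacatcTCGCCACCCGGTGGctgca
Pink1, chr4:138319681-138319736: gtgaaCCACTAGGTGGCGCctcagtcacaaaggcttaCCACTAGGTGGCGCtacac
Iqsec1, chr6:90737561-90737631: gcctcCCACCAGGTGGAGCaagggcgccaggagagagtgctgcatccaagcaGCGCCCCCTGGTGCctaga
Rfx7, chr9:72530399-72530456: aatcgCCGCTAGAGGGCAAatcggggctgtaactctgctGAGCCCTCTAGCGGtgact
Polr3gl, chr3:96580340-96580404: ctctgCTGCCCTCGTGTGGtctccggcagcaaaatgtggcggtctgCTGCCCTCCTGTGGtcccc
Armc9, chr1:86179000-86179073: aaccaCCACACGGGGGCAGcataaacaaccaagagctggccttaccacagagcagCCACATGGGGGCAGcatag
For the second strongest member, which lies in the 5′ UTR of Acbd4, only the better motif and the 16 bases before it are printed.
Acbd4, chr11:103102799-103102828, plus strand: ccactcccgtgggtttCCACCAGGGGGCGC

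In these 10 members the first bases of both motifs lay 32 to 52 bp apart. The Pink1 site held the same 14 bases in both motifs, each without a mismatch and on the same strand. At Fam129b, Iqsec1 and Rfx7 the motifs pointed towards each other, at Epm2aip1 they pointed apart, and at the other 6 they lay on the same strand.

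The strongest member of all lay 13510 bp upstream of Rbm19, whose product acts in ribosome assembly, at chr5:120102729-120103160 outside any gene. Its signal was 747 in the optimal list, 419 in replicate 1 and 329 in replicate 2, and it ranked first in each list. Signals are in the peak caller's own units and are compared only within a list. The member at Acbd4, which encodes a protein that binds acyl-CoA, had its summit 167 bp upstream of the nearest start and ranked 5 in replicate 1 and 2 in replicate 2. The member in an intron of Fam129b, 1709 bp past the nearest start, ranked 3 in both replicates. These 3 sites were thus at the very top of both libraries, one at a promoter, one in an intron and one between genes.

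The other 7 of the 10 strongest were equally varied in place. Those of Comtd1 and Polr3gl, which encodes a subunit of RNA polymerase III, had summits 55 and 205 bp upstream of a start. The member of Iqsec1, an exchange factor for ARF GTPases, lay 911 bp upstream of a start and inside another transcript of the gene. The member of Pink1, a mitochondrial kinase, was intronic, and that of Armc9, a gene of the primary cilium, lay in a non-coding exon. The member nearest to Rfx7, a transcription factor gene, lay in an intron of 4930509E16Rik, 1822 bp upstream of Rfx7. The member nearest to Epm2aip1, whose product binds the glycogen phosphatase laforin, lay 15953 bp from it and outside any gene. The largest rank among the 10 was 11 in replicate 1 and 30 in replicate 2, the latter at Armc9.

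The signal of the members ran from 747 down to 449, with a median of 492 against 67.9 over all optimal peaks. These are the values that chose them. The 3 members just inside the limit, at Ppp2r2d, Snx1 and Npas1, had signals of 449.28, 449.16 and 448.94. The 3 peaks just outside, at Mylk2, Gng7 and Prr5, had 448.91, 448.89 and 448.82. The limit of 1000 therefore falls within a continuous run of values, and the next 1000 peaks, up to rank 2000, are given beside the members where the contrast matters. The median width was 321 bp, with a range of 262 to 564 bp. In all, 999 members lay on the main chromosomes. The remaining one, rank 378 with ranks of 305 and 613 in the replicates, lay on the unplaced scaffold chrUn_GL456359 and has no location or motif here.

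Every member had a peak with its summit within 100 bp in both replicate lists. In replicate 1 the median rank was 501.5 and the lowest-placed member ranked 1956, and 902 of the 1000 were among the 1000 strongest of that list. In replicate 2 the median rank was 526.5 and the lowest-placed member ranked 2240, with 830 among the 1000 strongest. A total of 740 members were among the 1000 strongest of both replicates, 162 of replicate 1 alone, 90 of replicate 2 alone and 8 of neither. The optimal list was made from both replicates, so these ranks describe the choice and do not test it. When the 1000 strongest peaks were instead taken from 1 replicate and looked up in the other, 741 were among its 1000 strongest in each direction. Those from replicate 1 had a median rank of 565.5 and a largest rank of 4522 in replicate 2, and those from replicate 2 had 543.5 and 9904 in replicate 1. All 1000 members were also the 1000 strongest peaks of the conservative list, the stricter of the deposited IDR lists.

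**Figure D1:**
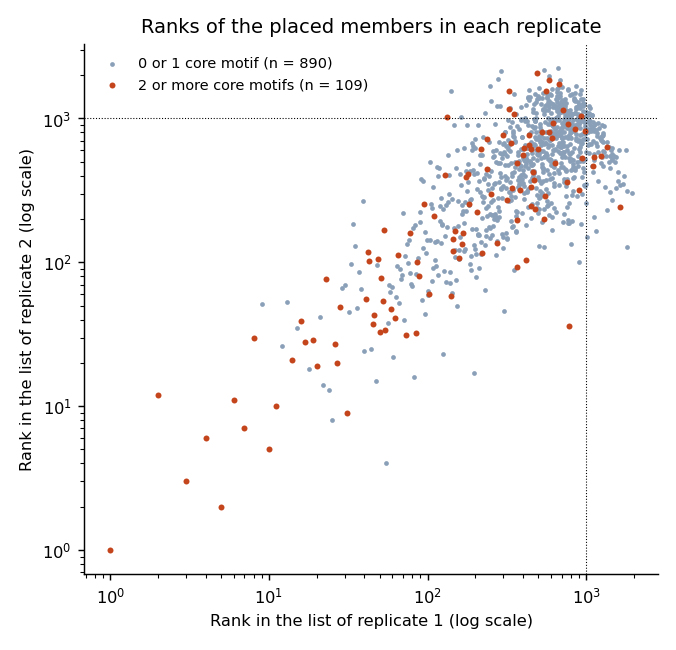
Rank of each of the 999 placed members in the list of replicate 1 (horizontal, log scale) and of replicate 2 (vertical, log scale), with members holding 2 or more core motifs in red. Dotted lines mark rank 1000. Of all 1000 members, 740 rank 1000 or better in both lists, and members with 2 or more core motifs are frequent in the lower left corner.

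The members of lowest rank in each replicate ranked higher in the other. The choice by a signal made from both replicates brings this about, so it is no separate result. The member 121 bp upstream of Hook2, which encodes a microtubule adaptor, ranked 1956 in replicate 1 and 303 in replicate 2, with signals of 230 and 224. Those nearest to Klhl31 and Rps21, a ribosomal protein gene, ranked 1814 and 1806 in replicate 1 but 128 and 311 in replicate 2. In the opposite direction, the members nearest to Phospho2, Snx1, a sorting nexin gene, and Pole4, a DNA polymerase epsilon subunit gene, ranked 668, 545 and 290 in replicate 1 and 2240, 2171 and 2136 in replicate 2. Over the 1000 members the signals of the replicates had a Spearman correlation of 0.592 and a Pearson correlation on the log2 scale of 0.690. Both are given as a description because all members share the same libraries. The members were also chosen by a high signal made from both replicates. The values therefore do not measure how well the replicates match over the whole list.

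A core motif was found within 50 bp of the summit in 911 of the 999 placed members, or 91.2% (89.3 to 92.8), against 70.8% of all optimal peaks. In the 1000 strongest peaks of each replicate the share was 90.8% ± 0.637 (SD, n = 2). The next 1000 peaks were at 90.8% (88.8 to 92.4), an interval that overlapped that of the members. A motif without mismatch was present in 29.8% of members (27.1 to 32.7), in 10.4% of all optimal peaks and in 31.2% of the next 1000. The share with a motif then fell class by class to 45.2% in ranks 40001 to 50890.

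The number of motifs did differ. In 109 members, 10.9% (9.13 to 13.0), 2 or more non-overlapping core motifs lay within 50 bp of the summit. The share was 2.33% in all optimal peaks and 6.00% (4.69 to 7.65) in the next 1000, and it was 11.2% ± 0.566 (SD, n = 2) in the 1000 strongest of each replicate. Within the members it was steepest at the top. All of the 10 strongest, 40 of the 100 strongest (30.9 to 49.8%), 21 of the next 150, 21 of the 249 placed members after those and 27 of the last 500 held 2 or more. In the replicate lists themselves, 37 and 38 of the 100 strongest did. The measure was chosen after the data had been seen, and its level depended on the mismatches allowed. With at most 1 mismatch it was 3.70% of members and 0.258% of all optimal peaks, and with at most 3 it was 32.1% and 16.9%. Of the 10 strongest, 3 held 2 motifs with at most 1 mismatch each. In windows of the same 101 bases centred 200 bp to the left or right of the summit, 2.80% and 2.60% of members held any core motif, beside 3.45% and 2.95% of all optimal peaks.

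**Figure D2:**
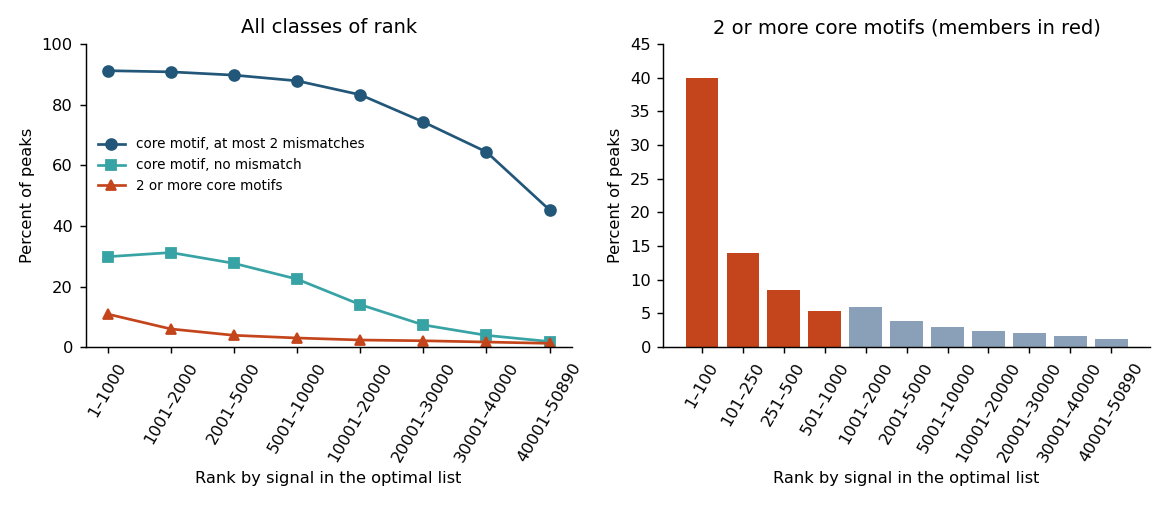
Percent of peaks with a core motif (circles), with a motif without mismatch (squares) and with 2 or more motifs (triangles) by rank in the optimal list, and at right the last measure with the members divided into 4 classes (red bars). The share with 2 or more motifs was 40% in the first 100 peaks and 5.4% in ranks 501 to 1000, while the share with any motif stayed near 91% in the first 2000.

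Of the 109 members, 106 held 2 motifs and 3 held 3. The 2 motifs lay on the same strand in 64 members, pointed towards each other in 31 and pointed apart in 11. The median distance between their first bases was 45.5 bp (quartiles 33.25 and 53), against 37 bp in the 1047 other optimal peaks with 2 motifs. The same strand was shared in 60.4% of these members and in 50.4% of those other peaks. In 71 of the 106 the summit lay between the motifs, a count not given here for the other peaks. Both motifs had to lie within 50 bp of the summit, which limits how far apart they can be. Members with 2 or more motifs had a median width of 362 bp, those with 1 motif 318 bp. Their median ranks were 205 and 211 in replicates 1 and 2, against 532.5 and 555.5 for the members with 1 motif. The median GC content within 100 bp of the summit was 56.7% in both kinds of member.

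**Figure D3:**
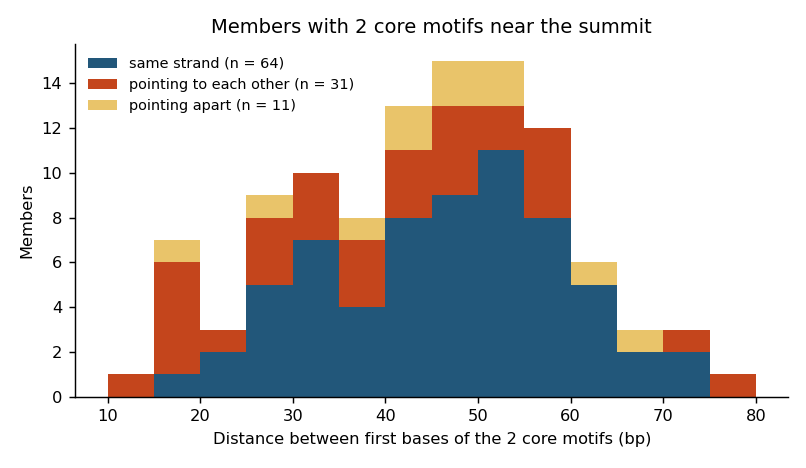
Distance between the first bases of the motifs in the 106 members with exactly 2 core motifs (horizontal, bp), counted in bins of 5 bp and coloured by relative orientation. Distances run from 14 to 76 bp with a median of 45.5 bp, and the same strand is the most frequent orientation. The search within 50 bp of the summit limits the distances.

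No core motif was found near the summit of 88 members. The best match had 3 mismatches in 67 of them and 4 or more in 21. The share without a motif was 12.5% at promoters, 6.85% in exons, 6.32% in introns and 7.79% between genes. Over all optimal peaks 29.2% had no motif, and their split by location is not given here. The difference between locations is therefore not shown to be particular to the members. A pair of strong ones is printed in the direction of the best match, with its 14 bases in capitals, to show how near to the motif they come.
Rab2b, chr14:52279451-52279480, plus strand: gccattatcccaccaaGCTCCAGGGGGCGA
Dnah17, chr11:118103043-118103072, plus strand: ctgtgacagtggtgctCCCCCATGTGGCAT
Both best matches had 3 mismatches. The first lay in the 5′ UTR of Rab2b, a small GTPase gene, 75 bp past a start. The other lay in an intron of Dnah17, a gene of axonemal dynein, and ranked 126 in replicate 1 and 23 in replicate 2. The median signal of the members without a motif was 489, equal in 3 digits to that of the members with 1 motif. The members were chosen by this signal, which limits its range, so the likeness is no separate result.

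The letters within the core motif differed from those of weaker peaks. Among the 911 members with a motif, 490 different 14-base core sequences were found. The most frequent were CCACCAGGGGGCAG, in 27 members and 238 optimal peaks, and CCAGCAGGGGGCGC, in 24 members and 187 optimal peaks. The most frequent in the whole optimal list was CCAGAAGAGGGCAT, which stood in 2078 peaks and in 0 members. Its strongest peak ranked 2110, so it was absent from the next 1000 peaks as well. The 4 most frequent cores of the list, this one with CCAGAAGAGGGCAC, CCAGAAGAGGGCGC and CCAGAAGAGGGCGT, made up 13.8% of all optimal peaks with a motif and 0.220% of the members with one, which is 2 members. Of the 4965 peaks with these cores, 92.2% had the summit on a base that the reference marks as repeat, and their median signal was 50.8.

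By position, counted from 1 at the first base of the core, A at base 5 was found in 9.55% of members and in 30.2% of other optimal peaks with a motif. The share was 14.5% when summits on repeat-marked bases were left out, a comparison added after seeing the data. C at base 5 was at 58.0%, 36.5% and 44.5% in the same 3 sets, and G at base 8 at 67.0%, 46.7% and 58.2%. A CpG at bases 2 and 3 was found in 14.3% of members, 4.30% of the others and 5.72% of the others off repeats. The CpG at bases 12 and 13 was found in 48.3%, 32.3% and 34.1%. Outside the core, A stood 3 bases before it in 8.89% of members, 29.97% of the others and 16.9% of the others off repeats. At each of these positions the gap was smaller but kept its direction when repeats were left out. The same shares for the next 1000 peaks are not given here. The gaps are therefore not shown to be particular to the members.

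**Figure D4:**
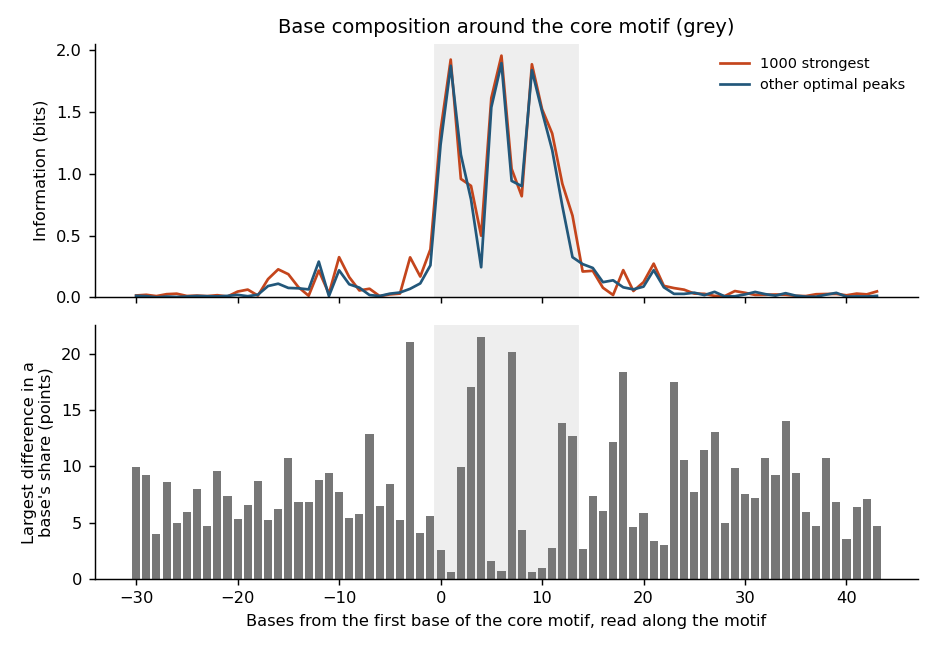
Information content per base (top, bits, at most 2) around the core motif in the 911 members and in the other optimal peaks with a motif, and the largest difference in the share of any base between both sets (bottom, percentage points). The horizontal axis counts bases from the first base of the core, shaded grey, and the largest bars stand at bases 5 and 8 of the core and 3 bases before it.

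Some CTCF sites carry a second, upstream element before the core. The letters GCANTNCC, read on the strand of the core from 16 bases before it with at most 1 mismatch in the 6 fixed letters, were present in 20.2% of members with a motif (17.7 to 22.9). The share was 21.04% in the next 1000 peaks, above that of the members, and 19.2% in ranks 10001 to 20000. It was 16.2% over all other optimal peaks with a motif, and 9.53% of those off repeats. At the 14 places read on the other side of the core the mean was 0.768% of members. In the 100 strongest members the share was 12.5%. This spelling and place were chosen after the data had been seen and overlap no core base.

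By location, 320 members were at promoters, within 1 kb of any annotated transcript start. That is 32.0% (29.2 to 35.0), against 22% of all optimal peaks and 26.6% (23.95 to 29.42) of the next 1000. The 1000 strongest of each replicate gave 31.1% ± 0.0708 (SD, n = 2). Introns held 285 members, 28.5% (25.8 to 31.4), against 39.5% of all optimal peaks. The next 1000 were at 31.5% (28.7 to 34.4), an interval that overlapped that of the members. Another 321 members were intergenic, 32.1% against 32.9% of all optimal peaks and 35% of the next 1000. The remaining 73 lay in other exons, 20 in coding sequence, 28 in 3′ UTRs, 2 in 5′ UTRs and 23 in non-coding exons. The strongest of the exonic members after Armc9 lay in a 3′ UTR of Ptges2, a prostaglandin synthase gene, with rank 19, and in the coding sequence of Zfp219, with rank 53. The strongest intergenic one after those of Rbm19 and Epm2aip1 was rank 11, 1974 bp upstream of Ndufa4l2.

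Of the promoter members, 282 were near the start of a protein-coding gene. Their summits sat just before it, at a median of 71 bp upstream (position -71, quartiles -183 and -7), and 75.9% (70.6 to 80.5) were on the upstream side. In the 245 of them with a core motif, the motif lay on the strand of the gene in 146, 59.6% (53.3 to 65.5). The same shares for promoter peaks of the whole optimal list are not given here. Neither trait is therefore shown to be particular to the members. Promoter members had a median GC content of 59.2% in the 201 bases at the summit and a median of 10 CpG, other members 55.2% and 4. Promoter peaks of the whole optimal list had 58.2% and 9, close to the promoter members. Away from promoters all optimal peaks had 48.8% and 2, so the non-promoter members were richer in GC than such peaks of the list. Over all locations the medians were 56.7% and 5 in the members, and 55.2% and 5 in the next 1000. The richness in GC is therefore not shown to be particular to the members. The share of promoters was not lowest in the weakest peaks. It fell to 17.7% in ranks 10001 to 20000 and was 27.9% in ranks 40001 to 50890.

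**Figure D5:**
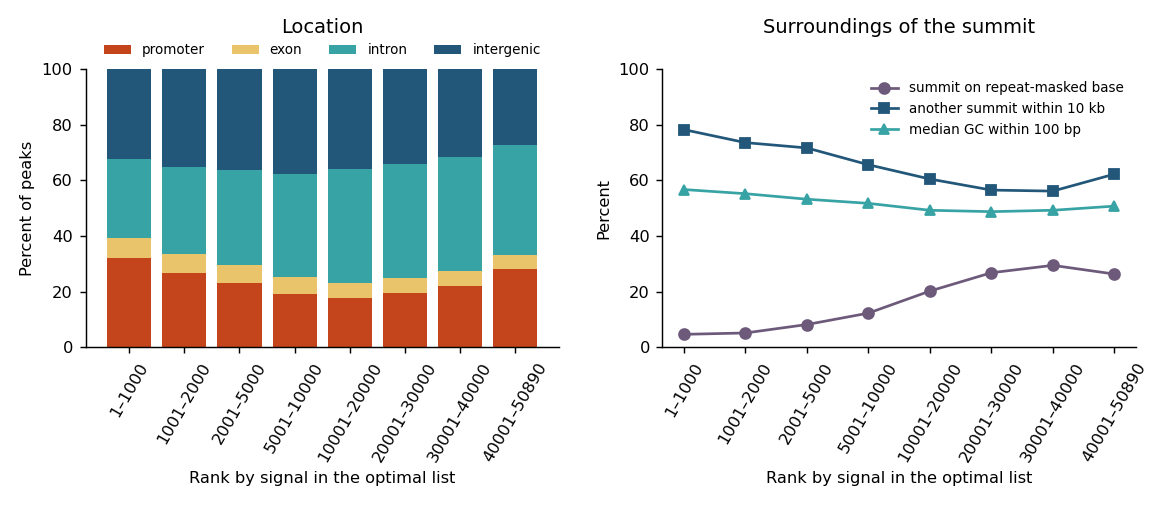
Left, percent of optimal peaks at promoters, in exons, in introns and between genes by rank. Right, percent with the summit on a repeat-marked base, percent with another optimal summit within 10 kb, and median GC percent within 100 bp of the summit, for the same classes. The members, ranks 1 to 1000, have 32.0% at promoters, 4.60% on repeats and 78.3% with a neighbour.

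Repeats were rare under the members. The summit lay on a repeat-marked base in 46 members, 4.60% (3.47 to 6.09), against 22.5% of all optimal peaks, and the share was 4.90% ± 0.142 (SD, n = 2) in the 1000 strongest of each replicate. The next 1000 were at 5.10%, and the largest share of any class of rank shown was 29.4%, in ranks 30001 to 40000. The 3 strongest such members were nearest to Cyth2, an exchange factor gene, with rank 43, to Phldb3, with rank 45, and to Fpgs, which encodes the enzyme that retains folates in cells, with rank 54. All 3 lay in introns.

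The members lay near other CTCF peaks. Another optimal summit lay within 10 kb of 782 members, 78.3% (75.6 to 80.7), against 61% of all optimal peaks and 73.6% of the next 1000. The 1000 strongest of each replicate gave 77.7% ± 1.98 (SD, n = 2). Within 1 kb the shares were 10.7% and 11.8%, and the interval of the members (8.94 to 12.8) included the latter. Members lay closer to genes as well, at a median of 4619 bp from a protein-coding start against 9084 bp. Neighbouring members were at a median of 407421 bp from each other, and 42 neighbouring pairs lay within 10 kb. The closest were a pair at Ap5b1, 620 bp apart with ranks 777 and 734, a pair at Rhof, 631 bp apart with ranks 823 and 235, and a pair between Gnai2 and Slc38a3, 1008 bp apart with ranks 197 and 518.

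Between neighbouring members 20 kb to 1 Mb apart, the motifs pointed towards each other in 154 of 518 pairs, 29.7% (26.0 to 33.8). Over neighbouring optimal peaks the share was 27.7%, which lies inside that interval. In the 500 strongest members it was 34.5% (28.3 to 41.3), an interval above 27.7%. In the 2000 strongest peaks it was 28.7% (26.3 to 31.3), an interval that included 27.7%. Neighbours in a shorter list skip the optimal peaks between them, so their pairs are unlike those of neighbouring optimal peaks. No preference is therefore shown for the strongest. The motifs pointed apart in 23.7% and the same way in 46.5% of member pairs. The replicates' own strongest peaks gave 29.7% ± 1.31 (SD, n = 2).

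By chromosome, 106 members were on chromosome 11, or 0.893 per Mb of known sequence, followed by chromosome 17 with 0.709 and chromosome 19 with 0.601. Chromosome 11 also held the most optimal peaks, 4060, of which the members were 2.61%. The X chromosome held 2 members, 0.200% (0.0549 to 0.727), although 2.16% of all optimal peaks lay there. Only 0.182% of its 1097 optimal peaks were members, while the autosomes ranged from 1.08% on chromosome 1 to 2.77% on chromosome 17. The 2 were rank 56, 141163 bp from Zxdb, and rank 842, nearest to Usp9x, a deubiquitinase gene. The next 1000 also had 2 peaks on X. The proportion of male and female embryos in the pool is not given.

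The 999 placed members were nearest to 916 different protein-coding genes. Of these, 63 were nearest to 2 members and 10 to 3: Fam49a, Gse1, Hdac11, Lctl, Mbp, Mvb12b, Rap1gap, Tpra1, Vps13d and Zfpm1. The nearest gene can be far away, as the members of Fam49a lay 61524 to 158821 bp from its start. The same counts for other optimal peaks are not given here, so these genes are not shown to be set apart. Gse1 had the strongest set, with ranks 22, 86 and 176, the first of them with 2 core motifs and 91226 bp past the nearest start. Zfpm1, which encodes the GATA1 partner FOG1 needed for red cell formation, had ranks 190, 215 and 613, at 12514, 8806 and 22593 bp upstream of its start. All 3 lay inside the annotated gene Gm20388, and rank 190 lay 58 bp past a nearer start of another gene. Hdac11, a histone deacetylase gene, had ranks 278, 678 and 883, and Rap1gap, which switches off the GTPase Rap1, had 145, 621 and 832. The members at Vps13d, a lipid transfer protein gene, had ranks 112, 521 and 886. Mbp, the gene of myelin basic protein, had ranks 46, 654 and 693.

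Among 14 gene lists, a member lay within 1 kb of a start in 3. Over all protein-coding genes 298 of 21911 had such a member, 1.36%. The genes of the respiratory chain and ATP synthase had 8 of 80, the strongest being Ndufb10 with rank 188, Ndufa6 with rank 222 and Atp5g2 with rank 227. Ribosomal protein genes had 5 of 80, led by Rpl26, Rps3a1 and Rpl36 with ranks 175, 209 and 313. The summits of these 6 lay 16 to 111 bp upstream of a start. Erythroid genes had 2 of 33, Dmtn, which encodes the red cell membrane protein dematin, with rank 171, and E2f2, a cell cycle transcription factor gene, with rank 882. The lists of hepatocyte genes (31), heme and iron genes (22), imprinted genes (28), Hox genes (39), clustered protocadherins (56), olfactory receptors (1092), cohesin and CTCF partners (24), cell cycle (29), other blood cells (28), endothelial and mesenchymal genes (16) and neuron and muscle genes (22) had 0. At 1.36% of genes, most of these lists are too short for a count of 0 to set them apart. An optimal peak of any rank lay at a start of 24 of the 33 erythroid genes, 50 of the 80 ribosomal protein genes and 45 of the 80 genes of the respiratory chain and ATP synthase. It did so at 17 of the 22 heme and iron genes, 10 of the 31 hepatocyte genes and 10 of the 1092 olfactory receptors, and at 35.2% of all protein-coding genes.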

How the data were processed

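Per the labels, CTCF ChIP-seq was made on pooled B6NCrl livers of embryonic day 14.5, with 2 replicates. Per the file headers and labels, the deposited peak lists are on mm10. Which program called the peaks is not stated in the labels or files used. The authors deposited for each peak a signal on an unstated relative scale and a summit as an offset from the start. The optimal list, 50909 regions as deposited, was ranked by signal after repeats were removed, and the first 1000 peaks were kept. Summits were matched between lists within 100 bp and placed on GENCODE vM21 (promoter within 1 kb of any transcript start, then exon, intron, intergenic). The 14-base CTCF core motif was sought on both strands in the RefSeq GRCm38 genome no farther than 50 bp from the summit, allowing 2 mismatches. Lower-case bases of that genome are called repeat-marked. Shares carry Wilson intervals (95%), and errors come from the 1000 strongest regions of each replicate. No test was made on the values that chose the members. Scripts ran on Python 3.11 with numpy, pandas, scipy and matplotlib and were tested on simulated data.

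The members and lists were chosen with earlier results of these data known. The genes named are the 10 strongest members, 3 on each side of the limit, the 3 strongest of each location, without a motif and on repeats, the 3 of lowest rank in each replicate, the 3 closest pairs, genes nearest to 3 members and the 3 strongest promoter members of each gene list. One member that this rule names is not reported here. The members on X and on the scaffold were named after their values were seen. The alternatives tried were other numbers of peaks, the conservative list, each replicate alone, and other windows and mismatches. The measures of 2 or more motifs, of the upstream element and of peaks off repeats were added after seeing the data. The pooled list, the signal tracks and the control were not analysed here.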

Additional observations from a re-analysis of the deposited data

How the results depend on the processing

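No paired analysis was possible because there was only 1 group. Shares are of the members, in percent, and each is given here where it moved by more than the spread of the replicates or, for shares of ranks, the interval. The intergenic share, 32.1 against 32.9 over all optimal peaks, lay below or above the latter depending on the setting. With 500 or 2000 peaks or 1 replicate, other shares stayed on the same side of the value over all optimal peaks. They were those with a motif, without mismatch, with 2 or more motifs, at promoters, on repeats, with a neighbour and of convergent pairs. The 1000 strongest peaks of the conservative list were the members themselves. That setting could therefore change none of these shares but that with a neighbour, which was 77.3. Taking the 1000 strongest of 1 replicate gave 90.4 to 91.3 with a core motif, 28.9 to 30.1 without mismatch, 10.8 to 11.6 with 2 or more motifs, 31.0 to 31.1 at promoters, 32.6 to 33.2 intergenic, 4.80 to 5.01 on repeats, 76.3 to 79.1 with a neighbour and 28.7 to 30.6 of pairs convergent. Taking the 500 strongest gave 92.2 with a motif, 16.4 with 2 or more, 32.5 at promoters, 4.01 on repeats, 81.6 with a neighbour, 34.5 convergent and 87.4 among as many strongest of replicate 1. The interval of that convergent share, 28.3 to 41.3, lay above the 27.7 of all optimal peaks, whose neighbouring pairs are unlike those of a shorter list. Taking 2000 gave 8.45 with 2 or more motifs, 29.3 at promoters, 33.6 intergenic, 4.85 on repeats and 75.9 with a neighbour. A motif was found in 80.3 within 25 bp and in 92.8 within 100 bp, and in 69.6 with at most 1 mismatch and 97.9 with at most 3. A motif without mismatch was found in 26.1 within 25 bp. For 2 or more motifs the share was 18.0 within 100 bp, 3.70 with at most 1 mismatch and 32.1 with at most 3. Promoter and intergenic shares were 24.6 and 34.1 with a window of 500 bp, 61.5 and 21.6 with 5000 bp, and 28.2 and 33.4 with protein-coding starts only. A neighbour lay within 5 kb of 57.3 and within 50 kb of 99.5. The read depth is unknown, so no limit of detection can be given.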

Other observations

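One stretch of sequence was shared by a pair of members on chromosome 19 whose summits lay 110666 bp apart, rank 114 nearest to Scd4 (chr19:44363489-44363844) and rank 421 nearest to Wnt8b (chr19:44474160-44474513). It was the only 30-base site, a core and the 16 bases before it, found in more than 1 member, and it was noticed after the data had been seen.
Scd4, chr19:44363685-44363714, plus strand: gcaggtgcccacgtgtCCTGCAGGGGGCAG
Wnt8b, chr19:44474310-44474339, minus strand: gcaggtgcccacgtgtCCTGCAGGGGGCAG
Capitals mark the core. The unbroken run of equal bases around it was 45 bases long, and the sites lay on opposite strands. Aligned at the core without gaps, 235 of 499 bases were equal, 47.1%. Their signals in the optimal list were 567 and 502. How reads that fit both places were assigned is not stated in the labels or files used.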
